A study of Mus musculus with 15 samples.

Results

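Muscle myosin carries small light chain subunits on the neck of each heavy chain, and these subunits and the kinases that phosphorylate them were followed in mouse ventricles after induction of the RNA-binding protein Celf1. The genes were chosen by name, as the rows of the deposited table that belong to Myl1, Myl2, Myl3, Myl4, Myl6, Myl7, Myl9, Mylk and Mylk3. Of these 9 genes, 7 were found by symbol and 1, Mylk3, by its gene number, since the table lists it as D830007F02Rik. Myl9 was matched by neither and was not analysed here. The 8 genes are 8 of 16042 in the table, and all 8 were among the 10868 genes with a mean of at least 1 RPKM (reads per kilobase of gene model, relative to all mapped reads) that were tested.

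Ventricular polyadenylated RNA was sequenced from 15 mice aged 20 to 22 weeks, in 5 groups of 3 separate mice. All mice carried MHCrtTA, a tetracycline-controlled activator under the promoter of the alpha myosin heavy chain, which is active in heart muscle, and all ate food with 2 g/kg doxycycline after 2 to 3 hours without food. Control mice carried the activator alone and had doxycycline for 72 hours. Induced mice (MHCrtTA/TRECUGBP1) also carried a tetracycline-inducible human Celf1, the LYLQ isoform with a Flag tag at its N-terminus, and had doxycycline for 12, 24 or 72 hours or 7 days, so that only the 72 hour group matched the controls in time on the drug. The atria and a small portion of the apex had been removed at dissection.

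In a working myosin molecule each heavy chain binds an essential light chain, which stiffens the lever arm, and a regulatory light chain, whose phosphorylation raises the force or the rate of contraction. Adult ventricular muscle is known for the pair Myl2 (regulatory) and Myl3 (essential), and atrial muscle for the pair Myl7 (regulatory) and Myl4 (essential). The regulatory chains are phosphorylated by myosin light chain kinases, of which Mylk3 is the heart muscle form and Mylk the form of smooth muscle and non-muscle cells, and a phosphatase reverses the reaction.

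Positions are those of the NCBIM37 (mm9) assembly. Myl2 lies at chr5:122550960-122563481, Myl3 at chr9:110666150-110672308, Myl4 at chr11:104411977-104457067 and Mylk at chr16:34745296-35002520, all on the forward strand. Myl7 lies at chr11:5796640-5798785, Myl1 at chr1:66970869-66991978, Myl6 at chr10:127927916-127930931 and Mylk3 at chr8:87848202-87910244, all on the reverse strand. Exons of Myl2 overlap those of Ccdc63, and exons of Myl4 those of Gm11665, on the opposite strand. Whether counting used strand is not given in the sources used here, so reads of each such pair could not be told apart.

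The 250 bases before the annotated start are printed for the genes of the ventricular pair and for Myl7, because Myl2 and Myl3 had the highest levels and the largest falls, and Myl7 is the atrial counterpart of Myl2. They are read 5′ to 3′ on the strand of the gene from the same assembly, at chr5:122550710-122550959 for Myl2, chr9:110665900-110666149 for Myl3 and chr11:5798786-5799035 (reverse strand) for Myl7. Capitals mark a match to the motif of MEF2, a muscle transcription factor, or a CArG box, the element bound by serum response factor.
Myl2: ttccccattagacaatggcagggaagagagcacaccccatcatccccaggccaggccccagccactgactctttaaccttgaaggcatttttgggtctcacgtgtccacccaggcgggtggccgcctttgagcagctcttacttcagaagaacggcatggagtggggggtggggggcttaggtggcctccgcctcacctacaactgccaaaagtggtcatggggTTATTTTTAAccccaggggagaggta
Myl3: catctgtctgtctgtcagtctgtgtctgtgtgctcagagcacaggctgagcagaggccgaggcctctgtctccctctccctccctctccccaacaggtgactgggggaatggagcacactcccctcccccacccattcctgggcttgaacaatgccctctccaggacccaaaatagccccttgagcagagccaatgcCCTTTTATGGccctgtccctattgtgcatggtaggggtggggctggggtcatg
Myl7: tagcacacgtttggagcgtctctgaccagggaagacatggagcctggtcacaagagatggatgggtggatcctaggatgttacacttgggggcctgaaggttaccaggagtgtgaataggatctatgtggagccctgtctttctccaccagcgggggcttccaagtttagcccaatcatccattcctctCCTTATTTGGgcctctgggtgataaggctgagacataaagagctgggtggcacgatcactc
The Myl2 window held a MEF2 motif that ends 17 bases before the start. The Myl3 and Myl7 windows each held a CArG box, ending 44 and 52 bases before the start. The windows of Myl1, Myl4, Myl6, Mylk and Mylk3 were searched as well and held neither motif. Those of Mylk (chr16:34784757-34785006) and Mylk3 (chr8:87889224-87889473) lie well inside the gene spans given above, and the outer starts of these kinases were not searched. Of 15627 promoters of the same length, 2.0% held the MEF2 motif and 1.2% a CArG box, on either strand. The other motifs searched on both strands were TATAAA (8.4% of promoters), GATAA (17.1%), CANNTG (60.4%) and GGGCGG (50.7%). In these 3 windows they gave GATAA in Myl7 and CANNTG in all 3. The search was also run on the 3′ untranslated regions for TGTTTGT, a sequence of the kind Celf1 binds: among the 9 genes only Mylk held it, against 22.9% of 15107 annotated genes. A match is a description of the letters and not a measured binding site.

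Induction was read from the row of Celf1, which does not separate the transgene from the mouse gene if reads of the human sequence align there. Its mean was 34.4 RPKM in controls, 305 after 12 hours, 378 after 24 hours, 173 after 72 hours and 32.8 after 7 days. The 7 day mice overlapped the controls (limma adjusted p = 0.771), so no higher level was seen at that time. Depth was estimated at 16.5 to 52.1 M reads per column from the steps between low values. Summed markers of heart muscle cells lay at 30300 to 33100 RPKM in controls. Of the atrial markers, Bmp10, a growth factor, lay between 0 and 0.22 RPKM in all mice, but others were present in the controls, with Nppa at 36.3 to 49.4 RPKM, Sln at 11.1 to 18.4 and a summed level of the 8 markers of 106 to 134. Column names carry codes that no source explains. The code of the controls occurs in 1 induced mouse alone (72 hour mouse A3278), the 24 hour codes occur in no other group, and the 72 hour and 7 day groups share 3 codes, so values within a code are given where the codes allow. Folds are differences of log2(RPKM + 1) with the standard error of a limma fit over all 15 mice. A gene is called where its Benjamini-Hochberg adjusted p over all genes tested is under 0.05. The comparisons with control share the same 3 control mice.

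In control ventricles the ventricular pair stood far above the other light chains. On the RPKM scale, which is per length, the order of the means was Myl2 (9520), Myl3 (5420), Myl6 (208), Mylk3 (178), Myl1 (113), Myl4 (38.2), Myl7 (16.7) and Mylk (5.61). No 2 neighbours in that order overlapped between their 3 mice. Myl2 ranked 2 and Myl3 ranked 7 among all genes of the table. At 7 days the order began with Myl2 (1360), Myl3 (768) and Myl6 (363), and the mice of Myl2 and Myl3 then overlapped.

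**Figure D1:**
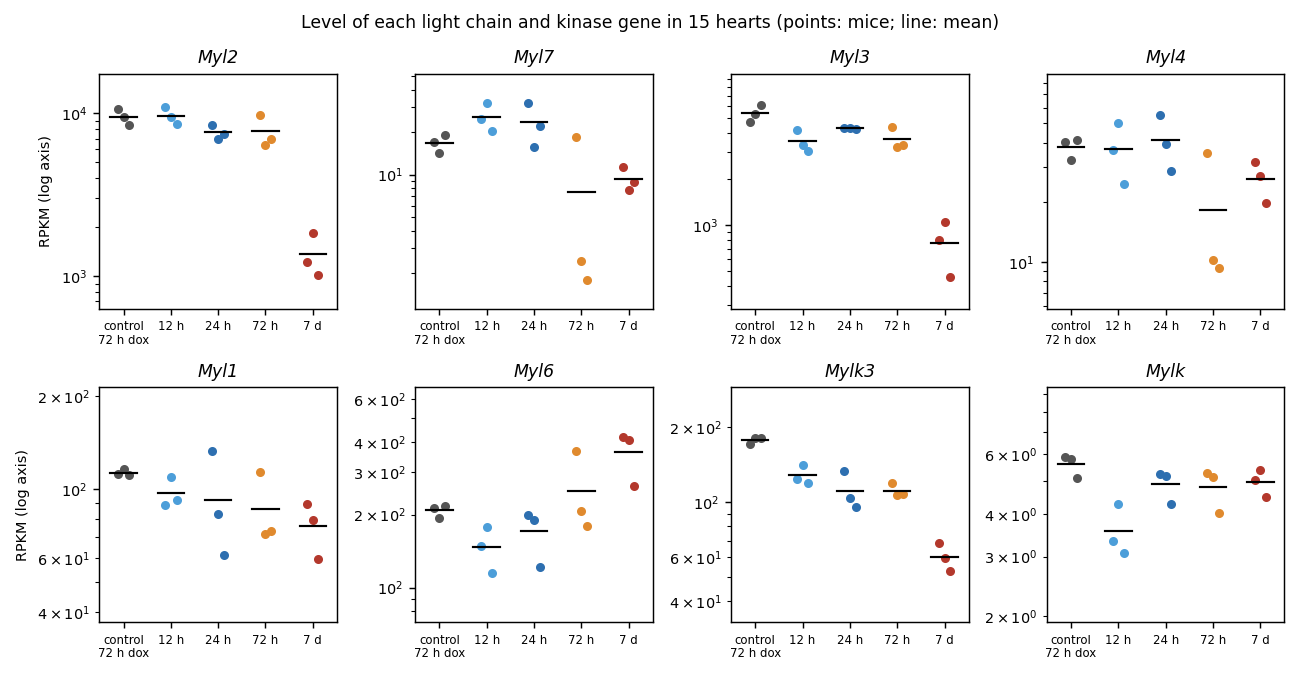
Level in RPKM on a log axis of each of the 8 genes (panels) in the 15 hearts, by group; points are mice and lines are group means. Myl2 and Myl3 lie far lower in the 3 mice at 7 days than in any other mouse, Mylk3 is below control in all 12 induced mice, and Myl7 and Myl4 are low in the same pair of 72 hour mice.

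Both chains of the ventricular pair fell about 7-fold at 7 days and were not called at any earlier time. Myl2 encodes the regulatory light chain of ventricular and slow muscle. Its values were 10677, 9448 and 8436 RPKM in the controls, 10904, 9527 and 8645 after 12 hours, 8510, 6971 and 7430 after 24 hours, 9831, 6391 and 6994 after 72 hours, and 1220, 1849 and 1011 after 7 days. The 7 day mice were low against every other mouse, and the 12, 24 and 72 hour mice overlapped the controls. Its log2 difference from control was 0.03, -0.32 and -0.32 (each ± 0.23) at 12, 24 and 72 hours, with limma adjusted p of 0.945, 0.339 and 0.393. At 7 days it was -2.85 ± 0.23 (limma adjusted p = 3.99e-08), a mean 7-fold lower, and the rank of Myl2 among all genes went from 2 to 13.

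Myl3 encodes the essential light chain of the same muscles. Its values were 4771, 5383 and 6100 RPKM in the controls, 4198, 3349 and 3048 after 12 hours, 4338, 4344 and 4263 after 24 hours, 4405, 3245 and 3358 after 72 hours, and 803, 1046 and 456 after 7 days. On the deposited scale all 12 induced mice lay below all 3 controls, but the differences at 12, 24 and 72 hours (-0.62, -0.32 and -0.57, each ± 0.25) were not called, with limma adjusted p of 0.0965, 0.367 and 0.148. Their sign depended on the scaling: with quantile normalization the 24 and 72 hour differences of Myl3 became 0.07 and 0.04, and with the GC correction that at 24 hours became 0.06. The 7 day difference was -2.89 ± 0.25 (limma adjusted p = 7.75e-08), a mean 7.05-fold lower, and the gene went from rank 7 to rank 31. From 72 hours to 7 days Myl2 fell by 2.53 and Myl3 fell by 2.32 on the log2 scale (limma adjusted p = 2.27e-07 and 1.36e-06).

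The fall held within the column codes that both times share. In 1 of the 3 codes Myl2 was at 7046 and 6143 RPKM in the 72 hour columns and at 1718 in the 7 day column, in another at 6942 against 1011 and 1980, and in the last at 6638 against 1209. With the code as a term the 7 day differences from control were -2.23 for Myl2 and -2.31 for Myl3 (limma adjusted p = 0.000613 and 0.000401), a fit that reaches the controls through mouse A3278 alone. Both 7 day calls were made in 16 of 16 alternative settings, at -1.69 and -1.90 with quantile normalization. In bulk tissue, fewer heart muscle cells and less RNA per cell cannot be told apart. At 7 days 6 of 8 heart muscle markers fell and none rose (28.2% of all genes were called lower and 26.7% higher), with a median difference of -1.2 and a summed level of 10100 to 10600 RPKM, and all 4 fibroblast and all 4 macrophage markers rose. Their summed levels went from 419 to 465 RPKM in controls to 1250 to 1520 for fibroblasts and from 18.1 to 22.9 RPKM to 148 to 196 for macrophages, and the part of these cells in the result was not tested.

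The log2 ratio of Myl2 to Myl3 was 0.81 ± 0.35 (SD, n = 3) in controls and 0.86 at 7 days, against 1.46, 0.82 and 1.06 after 12, 24 and 72 hours. Only the 12 hour mice (1.38, 1.51 and 1.5) lay outside the control range (0.47 to 1.16). The exact two-sided permutation p at 12 hours was 0.1, the smallest that 3 against 3 mice can give, and 0.24 adjusted over the 12 ratio comparisons made.

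The atrial pair was scarce in these ventricles and varied most between mice of 1 group. Myl7 encodes the regulatory light chain of the atria. Its values were 17.1, 14.2 and 19.0 RPKM in the controls, 24.7, 32.2 and 20.4 after 12 hours, 32.2, 15.8 and 22.2 after 24 hours, 18.4, 2.46 and 1.80 after 72 hours, and 11.3, 7.83 and 8.80 after 7 days. The 12 hour mice all lay above the controls, but the differences of 0.58 and 0.41 (each ± 0.48) at 12 and 24 hours were not called (limma adjusted p = 0.397 and 0.558). With the column code as a term the 12 hour difference was 2.74 and called (limma adjusted p = 0.0272). That fit reaches the controls through 72 hour mouse A3278 alone, at 18.4 RPKM, where A3281 and A3264 were at 2.46 and 1.80. At 72 hours 2 mice (A3281 and A3264) were far below every other mouse and the third, A3278, was within the control range. The 72 hour difference from control was -1.62 ± 0.48 (limma adjusted p = 0.0382) and that from 24 hours -2.03 ± 0.48 (0.0132), in both cases with overlapping groups. The 7 day mice all lay below the controls, but the difference of -0.79 ± 0.48 was not called (limma adjusted p = 0.18).

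Myl4, the essential light chain of the atria and of embryonic muscle, followed the same mice. Its values were 40.5, 32.7 and 41.3 RPKM in the controls, 36.9, 50.1 and 24.7 after 12 hours, 55.4, 39.6 and 28.8 after 24 hours, 35.6, 10.3 and 9.34 after 72 hours, and 31.8, 27.3 and 19.8 after 7 days. The low pair at 72 hours was again A3281 and A3264, and the groups overlapped. The difference at 72 hours was -1.26 ± 0.38 from control (limma adjusted p = 0.0397) and -1.33 ± 0.38 from 24 hours (0.0332), and that at 7 days was -0.54 ± 0.38 and not called (0.245).

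The 72 hour calls of the atrial pair were fragile. Each was made in 7 of 16 alternative settings, and each was lost when any 1 control mouse (A3250, A3259 or A3280), A3281 or A3264 was left out. Without A3264 the log2 differences from control were -1.11 for Myl7 and -0.94 for Myl4, and without A3281 they were -1.26 and -1.002 (limma adjusted p from 0.191 to 0.2). Leaving out A3278 instead kept both calls, with larger differences of -2.5 for Myl7 and -1.851 for Myl4. Within the code of the controls, where A3278 is the only 72 hour mouse, Myl7 was at 18.4 RPKM against 14.2 to 19.0 and Myl4 at 35.6 against 32.7 to 41.3. From 72 hours to 7 days the differences over all mice were upward and not called, at 0.83 ± 0.48 for Myl7 and 0.73 ± 0.38 for Myl4 (limma adjusted p = 0.172 and 0.13). In the codes that 72 hours and 7 days share, Myl7 also rose, from 0.90 to 2.71 RPKM in the 72 hour columns to 7.61 to 9.70 in the 7 day columns. With the code as a term this step of Myl7 was 1.59 and called (limma adjusted p = 4.76e-05). With the code as a term the 7 day difference of Myl7 from control became 1.73 (limma adjusted p = 0.00469), opposite in sign to the difference without it, so its direction at 7 days depends on how the codes are treated.

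Repeat columns and depth bear on these low values. The 2 columns of A3264 differed for Myl7 (0.90 and 2.71 RPKM) and for Myl4 (4.78 and 13.9), by 0.96 and 1.37 on the log2 scale, more than in any other mouse with 2 columns. From the rough estimate of depth the lowest Myl7 value rests on about 11 reads. For Myl2 the repeat columns of 5 mice differed by at most 0.20. Some other genes of the atria were low in the same mice: Sln, sarcolipin, was at 1.16 and 0.96 RPKM in A3281 and A3264, against 13.0 in A3278 and 11.1 to 18.4 in controls. The marker Kcnj3 did not set them apart, at 7.07 and 6.94 RPKM against 7.10 in A3278. Sln was highest in 24 hour mouse A3262, at 98.0 RPKM, where Myl7 was at 22.2 and Myl4 at 28.8. The 8 atrial markers without Nppa summed to 34.0 and 36.1 RPKM in A3281 and A3264, against 77.6 in A3278 and 69.6 to 84.1 in controls, a sum formed after the values had been seen. With Nppa, the natriuretic peptide gene, the sums were 61.3 and 56.9 against 145 in A3278 and 106 to 134 in controls. The part of atrial tissue in the levels of Myl7 and Myl4 was not tested.

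By root mean square difference of centred log2 values over the 15 mice, the gene nearest to Myl7 of all genes tested was Myl4 (0.47, where Myl7 itself spread by 1.02 around its mean), followed by Atp5k (0.67) and Mybphl (0.71). The genes nearest to Myl4 were Thra (0.41), Mybphl (0.44) and Slc38a4 (0.44), where Myl4 spread by 0.68.

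**Figure D2:**
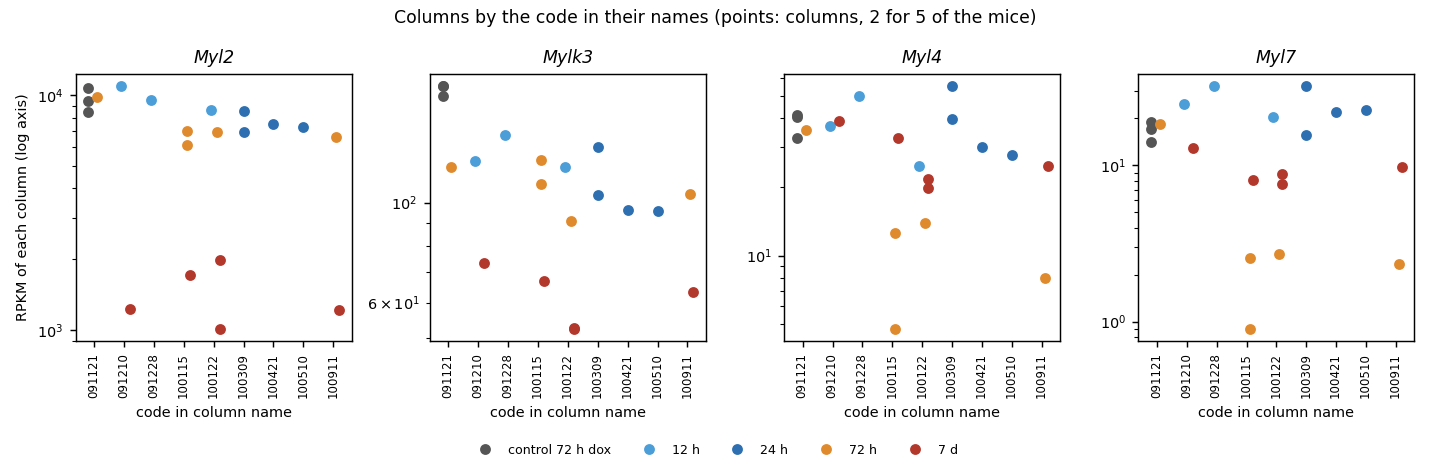
Level in RPKM on a log axis of Myl2, Mylk3, Myl4 and Myl7 in each of the 20 columns, placed by the code in the column name and coloured by group; 5 mice have 2 columns. Controls share their code with mouse A3278 only, Myl2 and Mylk3 are lower at 7 days than at 72 hours in each of the 3 codes these groups share, and Myl7 is higher there.

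The share of the atrial chain in each pair was highest at 7 days. Myl7 made up 0.16, 0.15 and 0.225% of Myl7 plus Myl2 in the controls and 0.921, 0.422 and 0.863% at 7 days. Myl4 made up 0.843, 0.603 and 0.672% of Myl4 plus Myl3 in the controls and 3.81, 2.55 and 4.17% at 7 days. In both pairs the 7 day mice lay above all controls, with an exact two-sided permutation p of 0.1, the smallest possible, and 0.24 adjusted over the 12 ratio comparisons. The share of Myl7 also lay above all controls at 12 hours (0.226 to 0.337%) and 24 hours (0.226 to 0.376%), with the same permutation p and adjusted p. The share of Myl4 overlapped the controls at both of those times. The mean of Myl7 was 9.32 RPKM at 7 days against 16.7 in controls, a difference that was not called and that changed sign with the column code as a term, as given above. For Myl4 the 7 day difference from control was 1.2 with that term (limma adjusted p = 0.131), also opposite in sign to the difference without it. Of 7 atrial markers tested at 7 days, 4 fell and 1, Nppa, rose, against 28.2% lower and 26.7% higher of all genes. Nppa was at 575 to 1233 RPKM against 36.3 to 49.4 in controls, and the other 7 markers summed to 19.5 to 31.6 RPKM against 69.6 to 84.1. Their part in the shares was not tested. At 72 hours the mean shares were 0.0836% for Myl7 and 0.465% for Myl4, against 0.178% and 0.706% in controls, with overlapping groups.

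**Figure D3:**
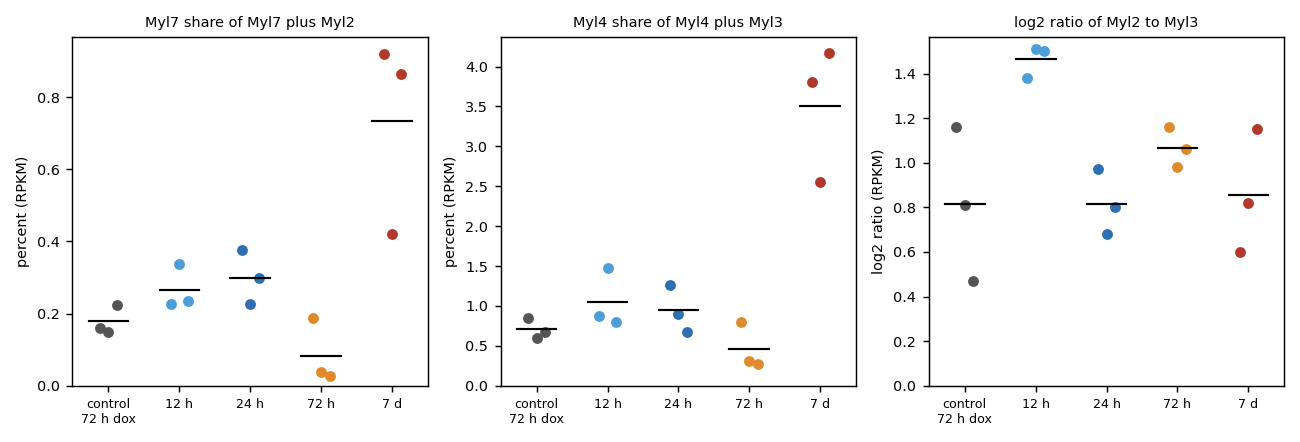
Myl7 as a percent of Myl7 plus Myl2, Myl4 as a percent of Myl4 plus Myl3, and the log2 ratio of Myl2 to Myl3, all from RPKM, in the 15 hearts by group; points are mice and lines are group means. The 7 day mice lie above all controls in both shares, and the 12 and 24 hour mice do so in the share of Myl7 alone. The log2 ratio of Myl2 to Myl3 is above the controls at 12 hours only.

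Myl6 rose at 7 days, and Myl1 was not called at any time. Myl6, the essential light chain of smooth muscle and non-muscle cells, was at 214, 193 and 218 RPKM in the controls and at 419, 408 and 262 at 7 days. All 7 day mice were above all controls, and Myl6 rose by 0.77 ± 0.27 (limma adjusted p = 0.0226), a mean 1.74-fold higher. The call was made in 13 of 16 alternative settings and was lost without control A3259, 7 day mouse A3283 or 7 day mouse A3345, at 0.72, 0.67 and 0.65. With the column code as a term the 7 day difference was 1.81 (limma adjusted p = 8.09e-05). That fit reaches the controls through 72 hour mouse A3278 alone, at 366 RPKM, where A3281 and A3264 were at 206 and 179. The earlier values of Myl6 were 148, 178 and 115 RPKM after 12 hours, 200, 190 and 122 after 24 hours, and 366, 206 and 179 after 72 hours. The 12 hour mice all lay below the controls, and A3278 alone was above them at 72 hours. The earlier differences (-0.52, -0.32 and 0.20, each ± 0.27) were not called, with limma adjusted p of 0.178, 0.406 and 0.662. The rise at 7 days came with the higher fibroblast and macrophage markers given above. Of 7 smooth muscle markers, 3 rose at 7 days (Acta2, Tagln and Cnn1) and 2 fell (Smtn and Myh11). Of all genes, 26.7% were called higher and 28.2% lower at that time. The markers summed to 157 to 223 RPKM against 155 to 192 in controls. The part of these cells in the level of Myl6 was not tested.

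Myl1, the essential light chain of fast skeletal muscle, was at 112, 116 and 111 RPKM in the controls and at 89.2, 79.6 and 59.6 at 7 days. The 7 day mice were below all controls, and the difference of -0.58 ± 0.25 was not called (limma adjusted p = 0.054, 95% interval -1.1 to -0.06). It was called lower in 4 of 16 alternative settings, with limma adjusted p from 0.0111 to 0.0425. These were the GC correction, median-of-ratios scaling, the 2 groups alone and leaving out A3345. With the column code as a term the difference was 0.08 (limma adjusted p = 0.837), in a fit that reaches the controls through mouse A3278 alone. At 12, 24 and 72 hours its mean was 96.9, 92.5 and 86.1 RPKM, with no call. Of 8 tested skeletal muscle markers, 4 fell at 7 days, where 28.2% of all genes were called lower and 26.7% higher. Their summed level was 23.3 to 46.5 RPKM against 208 to 216 in controls. Mylpf, the regulatory chain of fast skeletal muscle, lay at 0.15 to 1.54 RPKM in the controls.

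Mylk3, the light chain kinase of heart muscle, was called at more times than any other of the 8 genes. Its values were 172, 181 and 181 RPKM in the controls, 124, 141 and 120 after 12 hours, 133, 104 and 96.1 after 24 hours, 120, 107 and 107 after 72 hours, and 68.4, 59.7 and 52.8 after 7 days. All 12 induced mice lay below all 3 controls, and all 7 day mice lay below all mice of the earlier times. The log2 difference from control was -0.47 ± 0.16 at 12 hours and not called (limma adjusted p = 0.0628). The differences of -0.69 ± 0.16 at 24 hours and -0.67 ± 0.16 at 72 hours were called (limma adjusted p = 0.0156 and 0.0142). The 7 day difference was -1.55 ± 0.16 (limma adjusted p = 6.83e-07), a mean 2.95-fold lower. From 72 hours to 7 days it fell by a further 0.88 ± 0.16 (limma adjusted p = 0.000341).

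At 24 hours the Mylk3 call was lost without control A3259, control A3280 or 24 hour mouse A3262 (limma adjusted p = 0.0634, 0.0743 and 0.0722). At 72 hours it was lost without A3259, A3280, A3264 or A3281, with the first column of each mouse and with the column code as a term, with differences from -0.66 to -0.57 and limma adjusted p from 0.0521 to 0.0874. Mouse A3278, in the code of the controls, was at 120 RPKM against 172 to 181. The 7 day call was made in 16 of 16 alternative settings. Within 1 shared code the 72 hour columns were at 124 and 110 RPKM and the 7 day column at 66.9, and within another they were at 105 and 63.5. The genes nearest to Mylk3 over the 15 mice were Gstm1 (0.12), Ndrg2 (0.13) and Lsm14b (0.13), where Mylk3 spread by 0.52.

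Mylk, the light chain kinase of smooth muscle and non-muscle cells, was low throughout. Its values were 5.90, 5.83 and 5.11 RPKM in the controls and 3.34, 4.27 and 3.08 at 12 hours, when all 3 mice were below the controls. The 12 hour difference was -0.54 ± 0.17 (limma adjusted p = 0.0415), a call made in 4 of 15 alternative settings. It was -0.25 with either median-of-ratios scaling or quantile normalization, which moved the median of all genes at 12 hours from -0.3 to 0 and -0.01. The call was lost without any 1 mouse except A3252. At later times its means were 4.90, 4.81 and 4.97 RPKM, and the differences of -0.17, -0.19 and -0.15 (each ± 0.17) were not called. The genes nearest to Mylk were Nat10, Sipa1l3 and Zmynd8 (each 0.11), where Mylk spread by 0.22.

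**Figure D4:**
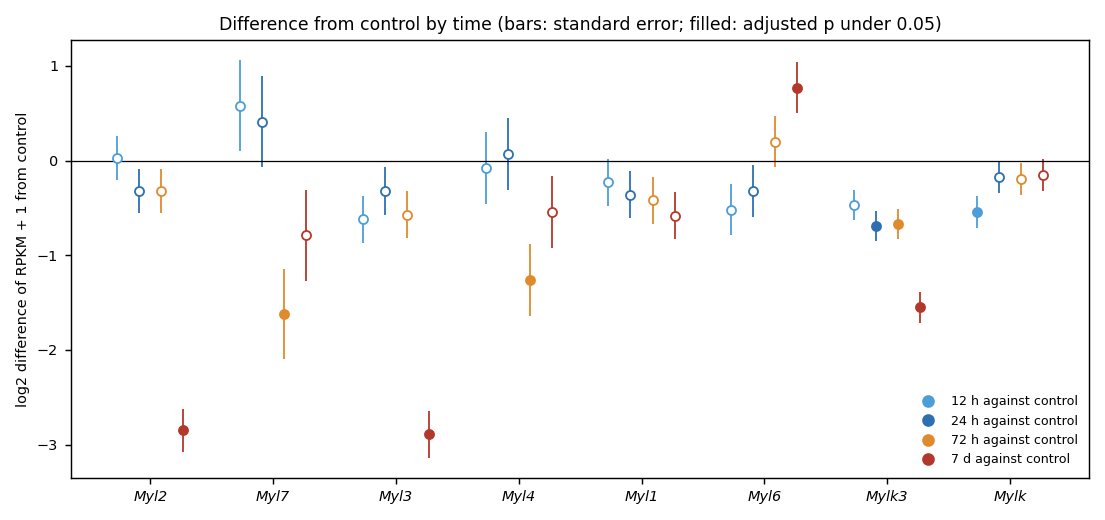
Difference of log2(RPKM + 1) from control for the 8 genes at 4 times; bars are the standard errors of the fit over 15 mice and filled points have an adjusted p under 0.05. Myl2 and Myl3 are near -2.9 at 7 days only, Mylk3 is below control at all times, and Myl6 is the only filled point above 0.

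Counted over the 8 genes, the calls have to be read against those over all genes tested. At 12 hours 1 gene was called lower (Mylk) and none higher, where 12.7% of all genes were called lower and 0.524% higher, with a median difference of -0.35 over the 8 genes and -0.30 over all genes. Median-of-ratios scaling moved the median of all genes at 12 hours to 0 and the calls from 57 higher and 1375 lower to 72 and 157. At 24 hours 1 was lower (Mylk3), against 10.6% of all genes lower and 5.38% higher, with medians of -0.32 and -0.19. That scaling turned 585 higher and 1151 lower calls at 24 hours into 908 and 753.

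At 72 hours 3 were lower (Myl4, Myl7 and Mylk3), against 5.22% lower and 6.39% higher of all genes, with medians of -0.50 and -0.10. At 7 days 3 were lower (Myl2, Myl3 and Mylk3) and 1 higher (Myl6), against 28.2% lower and 26.7% higher, with medians of -0.69 and -0.03. Between 12 and 24 hours limma called none of the 8, with 1 at an unadjusted p under 0.05, against 3.35% of all genes higher and 0.570% lower. Between 24 and 72 hours 2 fell (Myl4 and Myl7), against 2.57% lower and 7.67% higher. Between 72 hours and 7 days 3 fell (Myl2, Myl3 and Mylk3), against 22.3% lower and 22.6% higher.

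The other light chains, kinases and phosphatase subunits were taken from lists of named genes. Of 4 other light chains tested, Myl12a, a regulatory chain of non-muscle myosin, was called lower at 12 hours, 24 hours and 7 days. Its mean was 1100 RPKM in controls and 577, 465, 691 and 555 at the 4 times, with differences of -0.92, -1.30, -0.70 and -1 (each ± 0.28) and limma adjusted p of 0.0399, 0.0106, 0.109 and 0.00571. Its paralog Myl12b was called at 24 hours (-1.20 ± 0.26, limma adjusted p = 0.0118), at a mean of 281 RPKM against 609. The list's median difference at 7 days was -0.24. Of all genes, 12.7%, 10.6% and 28.2% were called lower at 12 hours, 24 hours and 7 days. Because these genes are near-identical copies, their split of reads is uncertain.

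Of 7 other kinases of the regulatory chain tested, 3 rose at 7 days and none fell, against 26.7% higher and 28.2% lower of all genes, with a median of -0.15. Rock1, a kinase that also inhibits the light chain phosphatase, rose by 1.5 ± 0.29 (mean 28.5 against 9.34 RPKM), and Rock2 by 1.05 ± 0.25 (49.9 against 23.5), with limma adjusted p of 0.00035 and 0.00189. Pak1, a kinase activated by Rac and Cdc42, rose by 1.75 ± 0.23 from a low level (4.90 against 0.763 RPKM, limma adjusted p = 9.08e-06). At 12 hours 1 of the 7, Dapk3, fell (by 1.19 ± 0.29, limma adjusted p = 0.0188) and none rose, against 12.7% lower and 0.524% higher of all genes. At 24 hours Rock1 and Rock2 rose (0.93 ± 0.29 and 0.93 ± 0.25, limma adjusted p = 0.0397 and 0.0222) and none fell, against 5.38% higher and 10.6% lower of all genes. At 72 hours limma called none, with 0 at an unadjusted p under 0.05. Mylk2, the skeletal muscle kinase, stayed at or below 0.555 RPKM in the 7 day mice and was not tested. Of 9 phosphatase genes tested, 3 rose and 1 fell at 7 days, against 26.7% higher and 28.2% lower of all genes, with a median of -0.19. Ppp1r12a, the targeting subunit of most tissues, rose by 0.79 ± 0.18, and Ppp1r12b, that of striated muscle, fell by 1.39 ± 0.21 (limma adjusted p = 0.00154 and 2.8e-05). The catalytic subunit Ppp1cb rose by 0.79 ± 0.25 (limma adjusted p = 0.0136) and the inhibitor Ppp1r14b by 0.76 ± 0.31 (0.0446).

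Of 15 tested heavy chains and myosin-binding proteins, 8 fell at 12 hours and 1 rose, against 12.7% lower and 0.524% higher of all genes. The median was -0.66, against -0.30 over all genes. At 24 hours 4 fell and none rose, against 10.6% lower and 5.38% higher, and at 72 hours 2 fell and none rose, against 5.22% and 6.39%. At 7 days 12 fell and 1 rose, against 28.2% lower and 26.7% higher of all genes, with a median of -2.23. At that time Myh6 and Myh7, the heavy chains that carry the ventricular light chains, fell by 3.07 ± 0.21 and 2.85 ± 0.20 on the log2 scale (limma adjusted p = 6.2e-09 and 5.43e-09). Myh7b fell by 3.92 ± 0.23 (7.1e-10) and Myh8 fell by 3.22 ± 0.24 (1.18e-08), and Myh9, a non-muscle heavy chain named here after its values were seen, rose by 0.82 ± 0.25 (limma adjusted p = 0.00937).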

How the data were processed

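The authors deposited 1 table of RPKM values with 16042 genes in 20 columns. TopHat, Bowtie and the build mm9 are named per the submitters' processing notes. Software versions, the way reads were counted and the use of strand were not given in the sources used here. Groups and mouse numbers were taken from the labels, and the 2 columns of each of 5 mice were averaged.

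On the scale log2(RPKM + 1), the 10868 genes whose mean was at least 1 RPKM over 15 mice entered 1 limma fit (version 3.58.1, R 4.3.3; lmFit, contrasts.fit, eBayes with trend) of 5 groups, with 10 residual and 7.12 prior degrees of freedom. The Benjamini-Hochberg adjustment ran over all genes tested, separately for each comparison. Fold changes of low genes are understated by the pseudocount of 1. The pair shares and ratios had exact permutation tests over mice. Ranges after ± are standard errors of the fit unless marked SD.

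Depth was estimated from the steps between the values of 103 olfactory receptor genes, a set widened after a smaller one had left too few values in 1 column, and values for single columns are rough. On simulated columns 40 of 40 estimates were within 5% of the true depth, but the estimate of another real column (of mouse A3281) changed far more between the smaller and the wider set. The simulated accuracy does not extend to the real columns, and read counts derived from them are rough. On simulated data for 7 days against control with 10868 genes, the fit recovered 70% of genes changed by 1 on the log2 scale and 97% of those changed by 2, with 8 false calls.

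The members and lists were chosen with earlier results of these data known. The genes named are the members, Celf1, of each list up to 4 genes with the smallest p among those called, any gene of the light chain, kinase, phosphatase and marker lists, and the 3 genes nearest to Myl4, Myl7, Mylk and Mylk3. Gene positions, 250 base promoters and untranslated regions came from NCBIM37 with GENCODE vM1, using the lowest-numbered coding transcript. The results of 1 further gene list are not reported here. The promoter of Myl4 was searched but not printed because its transcripts start far apart. Alternatives were a pseudocount of 0.1, no filter, a mean of at least 5 RPKM, quantile normalization, median-of-ratios scaling, robust moderation of the variance, the 2 compared groups alone, the first column of each mouse, and leaving out each mouse. Further alternatives, chosen after seeing the data, were a GC correction (span 0.3), the column code as a term (15 columns, without the 24 hour group and mouse A3252, mouse correlation 0.283) and the 4 columns that carry the controls' code.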

Additional observations from a re-analysis of the deposited data

Results flagged for a closer look

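A test of the difference between 2 times singled out 5 steps, which is also the test of whether the difference from control was unequal at those times. Myl2 (-2.53), Myl3 (-2.32) and Mylk3 (-0.88) were lower at 7 days than at 72 hours, with no overlap between the mice of the 2 groups, and within each of the 3 shared column codes the 7 day columns were lower for all 3 genes. Myl7 (-2.03) and Myl4 (-1.33) were lower at 72 hours than at 24 hours, with overlapping groups, and both steps were lost without mouse A3281 or mouse A3264, and that of Myl4 also without mouse A3254 or mouse A3277. The 24 hour codes occur in no other group, so for the latter pair the code and the time cannot be told apart. Single outlying mice were not tested.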

How the results depend on the processing

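Over all members, comparisons and alternatives there were 873 differences. Of these, 739 kept their direction and, where a test was made, their side of the threshold, 49 lost a call and 23 gained one. A further 59 changed sign where neither value was called, with Myl4 at 72 hours as the exception among them. It kept its sign but went from a called -1.264 to -0.091 in the controls' code alone, where no test was made. The last 3 were called differences, or differences that became called, and changed sign. Those 3 were Myl7, at 0.137 at 72 hours both with the column code as a term and in the controls' code alone, and at 1.73 at 7 days with the code as a term. In the controls' code alone the 72 hour change of share was 0.00861 for Myl7 and 0.0952 for Myl4, where all mice gave -0.0944 and -0.241 percentage points. The log2 ratio of Myl2 to Myl3 at 7 days was -0.13 with the first column of each mouse against 0.0444.

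The number of members called at 12 hours (1) was 0 with the GC correction, the first column, a mean of at least 5 RPKM, no filter or either scaling, and 5 (1 higher, 4 lower) with the 2 groups alone. With the code term it was 1 higher (Myl7) and none lower, so that Mylk was not called. At 72 hours (3) it was 0 with the first column, and 1, lower, with no filter or the 2 groups alone. With the code term it was also 1, but higher (Myl6, at 0.81, limma adjusted p = 0.0376). At 7 days (4) it was 7 with the 2 groups alone. From 24 to 72 hours (2) it was 1 with no filter and 0 with the 2 groups alone. From 72 hours to 7 days (3) it was 5 with the GC correction and 6 with the code term. The fit with the code term reaches the controls through mouse A3278 alone. The cause of these shifts was not tested.

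Leaving out 1 mouse at a time gave 0 to 1 members called at 12 hours, 0 to 1 at 24 hours, 0 to 3 at 72 hours, 0 to 2 from 24 to 72 hours and 3 to 6 from 72 hours to 7 days (6 without A3278). The 24 hour count of 1 became 0 without A3259, A3280 or A3262. The change of the log2 ratio of Myl2 to Myl3 then ran from -0.168 to 0.179 at 24 hours and from -0.129 to 0.218 at 7 days. Depth limits Myl7 and Myl4 most.

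No paired analysis was possible because the labels give mouse numbers that no 2 groups share.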
